A study of Mus musculus with 12 samples.

Results

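The effect of a high-fat diet (HFD) on small RNA was compared between adipose tissue extracellular vesicles (EVs, membrane particles that cells release) and hippocampus. The quantity followed is the HFD-minus-chow change in EVs less the HFD-minus-chow change in hippocampus, on the log2 scale, for every entry held by both deposited count tables. Of 1394 entries in either table, 852 were in both with values for all 12 libraries, and all 852 were known mature microRNAs (miRNAs). After a filter on low counts 519 were tested. The other 333 held 0.0165% of the counts. They had at most 266 counts each over the 12 libraries, and their median was 19.

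All mice were wild-type (WT) C57BL/6J males. Their groups were EVs of adipose tissue after chow (3 libraries), EVs after HFD (3), hippocampus after chow (3) and hippocampus after HFD (3, with brain as the labelled tissue of both), with 12 weeks on either diet. RNA was taken up in Trizol. The labels give neither the fat depot, the age at the start nor the animals behind each library, so the p-values reflect library-to-library spread, some of which may be technical.

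Some features of the libraries bear on every value below. EV libraries held 1825488 to 5941955 counts, chow hippocampus libraries 2331091 to 5723918 and HFD hippocampus libraries 11143775 to 12874600, so depth and diet went together in hippocampus. The chow hippocampus columns are headed LFD, and their reading as chow is an inference. In hippocampus 5 rows were blank in all 3 HFD libraries and filled in all 3 chow libraries, so both sets of columns may come from separate tables. Diet and such a split cannot be told apart there. In chow EV library 3 a single miRNA, miR-148a-3p, took 57.2% of counts. It took 39.7 and 34.1% in chow EV libraries 1 and 2, and 21.0 to 26.5% in the HFD EV libraries. Chow hippocampus library 3 also stood apart. Its chi-square per degree of freedom was 641 against library 1 and 589 against library 2, which had 221 between them. Without it 23 miRNAs were called in the difference, 20 of them among the 30 of the main fit. miRNAs known from neurons (22 listed and present) made up 31.3 to 35.8% of counts in chow hippocampus and 33.1 to 34.0% in HFD hippocampus, against 0.269 to 0.374% in chow EVs and 0.574 to 0.792% in HFD EVs. Among rows of at least 5 CPM on average, 14 lay within 5% of another row in every library. One is miR-9b-3p, which repeats miR-9-5p, and both are among the 10 most abundant hippocampal rows. Totals, shares and CPM count such reads more than once, except where shared reads are kept once.

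A miRNA is a short RNA cut from a hairpin precursor. One arm of the hairpin (5p or 3p) is loaded into Argonaute and pairs with messenger RNAs mainly through its seed, the bases near its 5′ end. Many miRNAs mark the cells that make them. In obese fat, macrophages and lymphocytes accumulate, endothelium and fat cells are remodelled, and vesicles carry miRNAs of all these cells. The hippocampus holds mainly neuronal and glial miRNAs, and its few blood-derived and microglial miRNAs come from minor cell populations.

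The sequences below carry the main patterns. Each is the mature RNA of RefSeq (GRCm38.p6), 5′ to 3′, with the seed (bases 2 to 8) in capitals. Of the tested miRNAs 448 of 519 had an entry there, and of the 30 called in the difference 26 did. The first set shows leukocyte miRNAs and the inflammatory miR-146a and miR-21a, whose diet effect in EVs lay above that in hippocampus.

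miR-142a-5p: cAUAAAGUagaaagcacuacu
miR-142a-3p: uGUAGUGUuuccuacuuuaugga
miR-142b: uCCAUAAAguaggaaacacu
miR-223-3p: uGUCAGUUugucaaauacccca
miR-342-3p: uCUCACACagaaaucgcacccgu
miR-146a-5p: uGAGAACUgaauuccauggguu
miR-21a-5p: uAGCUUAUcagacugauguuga

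The second set shares 1 seed, that of let-7, and holds called and uncalled members.

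let-7f-5p: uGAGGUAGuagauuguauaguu
miR-98-5p: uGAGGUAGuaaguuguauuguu
let-7g-5p: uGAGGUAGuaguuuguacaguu
let-7a-5p: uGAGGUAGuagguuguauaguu
let-7c-5p: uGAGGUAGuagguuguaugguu
let-7b-5p: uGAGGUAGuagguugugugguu

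The third set holds miRNAs tied to the nervous system.

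miR-9-3p: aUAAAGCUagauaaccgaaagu
miR-132-3p: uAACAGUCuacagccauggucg
miR-181c-5p: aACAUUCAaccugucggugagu

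The fourth set holds the endothelial pair and the ciliated-cell miR-34b-5p, with differences below 0.

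miR-126a-3p: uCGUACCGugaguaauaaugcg
miR-126b-5p: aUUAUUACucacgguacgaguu
miR-34b-5p: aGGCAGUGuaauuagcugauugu

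The last set holds miRNAs whose difference came from the hippocampus.

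miR-3470b: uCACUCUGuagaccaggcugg
miR-690: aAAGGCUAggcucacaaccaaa
miR-6481: cACUGAAAaugcuuagaug

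The 20 bases of miR-142b are the reverse complement of a stretch of miR-142a-3p, from the opposite strand at chr11:87756906-87756925, and both rows held identical counts in all 12 libraries. They are 1 measurement. miR-126b-5p likewise shares 19 bases with the reverse complement of miR-126a-3p, but its counts were not the same. The hairpins lie as follows in GRCm38.p6, with features from GENCODE M21. miR-142a-5p lies at chr11:87756867-87756887 in an intron of Mir142hg, a long noncoding RNA. miR-223-3p is at chrX:96242884-96242905 in an exon of F630028O10Rik. miR-146a-5p lies at chr11:43374435-43374456 between genes. miR-342-3p sits at chr12:108658680-108658702 in an intron of Evl. miR-335-5p is at chr6:30741314-30741336 in an intron of Mest, an imprinted gene. miR-132-3p maps to chr11:75173723-75173744 in an intron of 1700016P03Rik. miR-34b-5p maps to chr9:51103610-51103632 between genes, and miR-690 to chr16:28599940-28599961 in an intron of Fgf12.

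The diet effect differed between EVs and hippocampus for 30 of 519 miRNAs (5.78%) by edgeR's quasi-likelihood test at a Benjamini-Hochberg adjusted p under 0.05. In 25 of them (4.82% of those tested) the EV effect lay above the hippocampal effect, and in 5 (0.963%) below. They include leukocyte miRNAs such as miR-223-3p and miR-342-3p, the neural miR-9-3p and the endothelial miR-126a-3p. In the same fit HFD changed 38 miRNAs in EVs (7.32%), of which 26 rose (5.01%) and 12 fell (2.31%), and 29 in hippocampus (5.59%), of which 5 rose (0.963%) and 24 fell (4.62%).

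Of the 25 higher differences, 14 went with a rise in EVs alone, 6 with a fall in hippocampus alone, 2 with a rise in EVs and a fall in hippocampus, and 3 with neither diet effect called. Of the 5 lower differences, 3 went with a fall in EVs alone, 1 with a rise in hippocampus alone and 1 with neither. No miRNA was called in the same direction in both sample types by edgeR. Across the 519 miRNAs the effects in EVs and in hippocampus had a Pearson r of 0.0124 and a Spearman rho of 0.0700, a description over miRNAs that share their libraries.

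**Figure D1:**
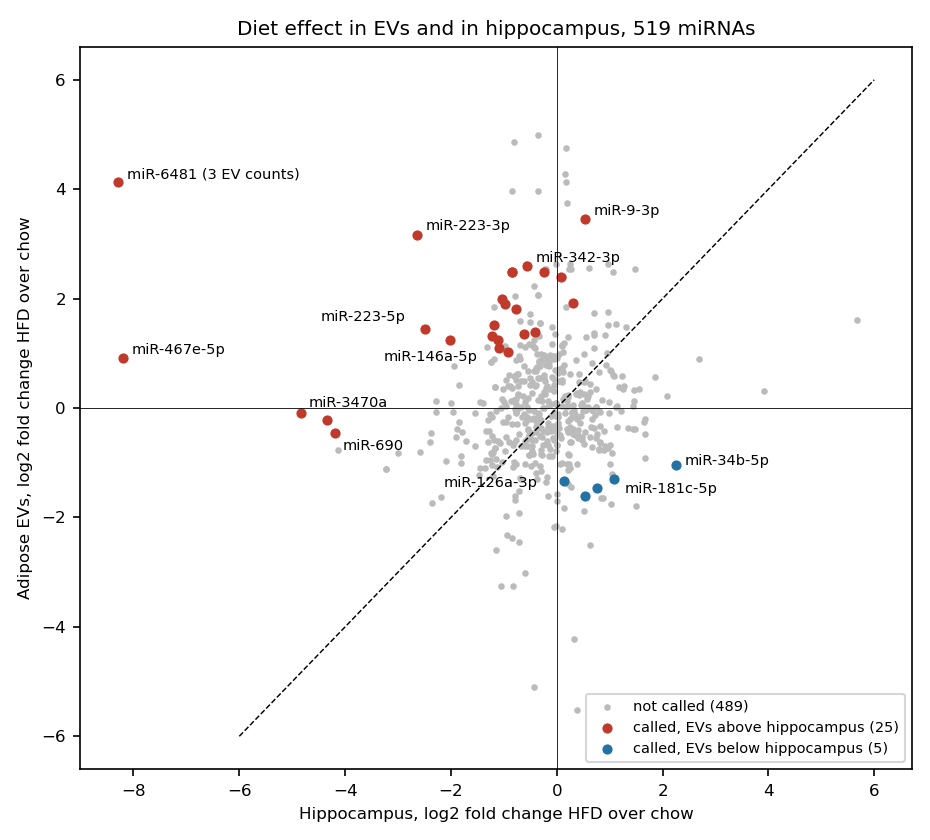
Log2 fold change of HFD over chow in EVs (vertical) against hippocampus (horizontal) for each of 519 tested miRNAs, with the dashed line where both are equal. The 25 red miRNAs lie above the line, mostly to the upper left, and the 5 blue ones below it; the EV value of miR-6481 rests on 3 counts.

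The median difference over all 519 miRNAs was 0.23, so this scaling set the bulk of miRNAs slightly above 0. It was 0.062 with TMM computed within each sample type, 0.27 with library totals and -0.16 with DESeq2 size factors. The split of calls moved with it. TMM within each sample type called 38, of which 24 were higher and 14 lower. DESeq2 size factors called 46, with 23 each way, DESeq2's own test 76, with 31 higher and 45 lower, and library totals 34, with 31 higher and 3 lower. Of the 30 miRNAs 26 were called under all 3 other scalings, 23 of them higher, and 12 were called in all 25 other settings, 10 of them higher. Without HFD EV library 2 there were 15 calls, 10 of them higher, and without chow EV library 3 there were 42, of which 20 were higher.

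A second view takes the 9 ratios of an HFD to a chow library within each sample type, on log2 of the CPM, the count scaled to a fixed library size by TMM, plus 0.5. The range of the 9 EV ratios lay wholly above that of the 9 hippocampus ratios for 53 of 519 miRNAs (10.2%) and wholly below for 22 (4.24%). All 30 called miRNAs were among these. The ratios reuse the libraries and the TMM scaling of the test, so this is not an independent check. The libraries of both diets did not overlap for 143 miRNAs in EVs (27.6%) and for 150 in hippocampus (28.9%).

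**Figure D2:**
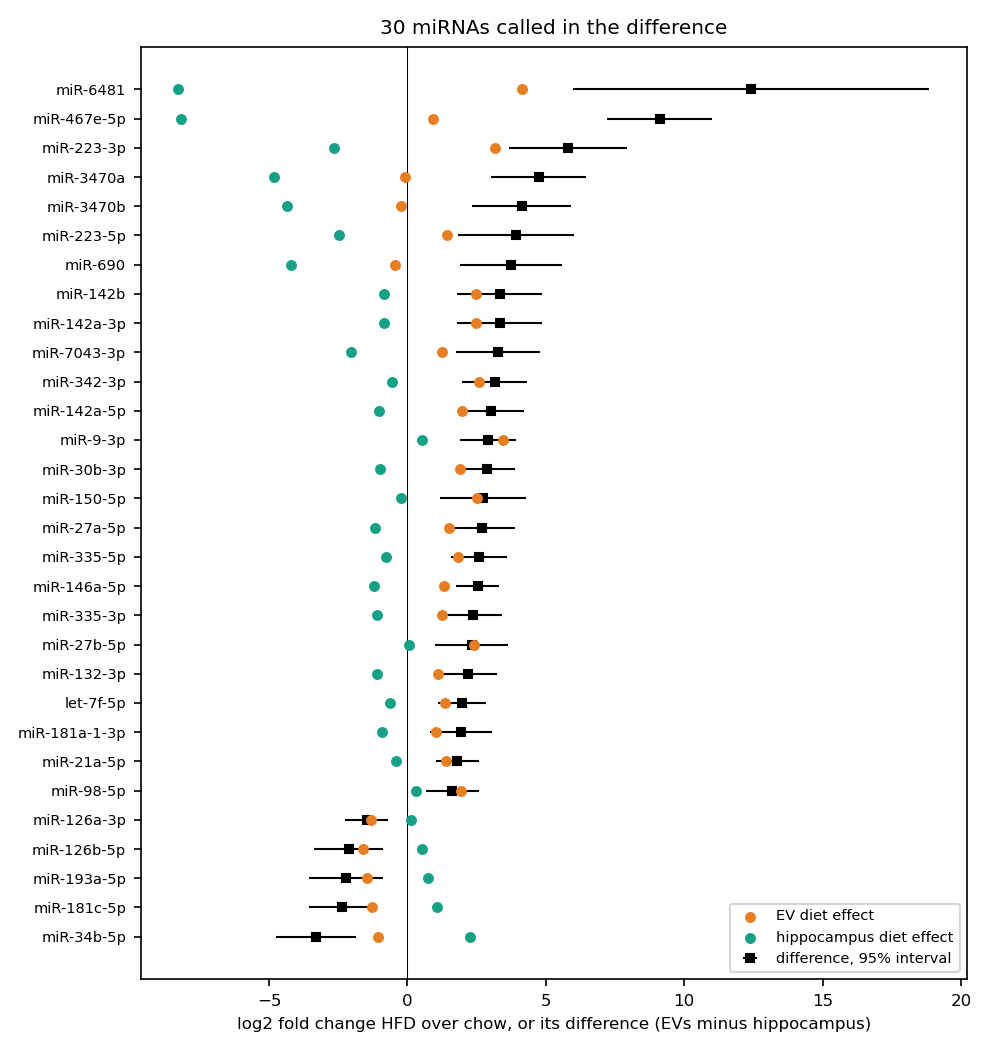
Difference of the diet effects (black squares, with 95% interval) for the 30 called miRNAs, beside the diet effect in EVs (orange) and in hippocampus (green), in log2 units. For most of the upper rows orange lies right of 0 and green left of it.

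Both miRNAs that rose in EVs and fell in hippocampus are known from innate immune cells. miR-146a-5p, a brake on NF-kB signalling that NF-kB itself induces, stood at 4752, 6152 and 5757 CPM in chow EVs and at 15797, 15424 and 10366 CPM in HFD EVs. In hippocampus it stood at 179, 140.4 and 141 CPM in chow and 64.6, 71.6 and 62.0 CPM in HFD libraries. The diets did not overlap in either sample type, and the directions were opposite. The difference was 2.54 (SE 0.37, 95% interval 1.75 to 3.32, adjusted p = 0.00108), from a log2 change of 1.32 (adjusted p = 0.00650) in EVs and -1.22 (adjusted p = 0.0121) in hippocampus. The difference was called in all 25 other settings. The hippocampal fall lost its call in 13 of 25 other settings (adjusted p = 0.0510 to 0.172), and the EV rise without chow EV library 1 and HFD EV library 2 (adjusted p = 0.0718 and 0.0923).

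miR-223-3p, the classic miRNA of neutrophils and macrophages, was measured at 8.80, 17.5 and 38.0 CPM in chow EVs and 214, 166 and 192 CPM in HFD EVs. Hippocampus held 0.867, 5.47 and 12.86 CPM in chow and 0.761, 1.27 and 0.883 CPM in HFD libraries. All HFD EV libraries lay above all others, whereas in hippocampus the diets overlapped through chow library 1. The difference was 5.81 (SE 0.9974, 95% interval 3.69 to 7.94, adjusted p = 0.00242), called in all 25 other settings. In hippocampus it fell by 2.64 on the log2 scale (adjusted p = 0.0484), which rests on 4 to 33 counts per chow library. That hippocampal call was lost in 22 of 25 other settings (adjusted p = 0.0502 to 0.291), and the value was -1.30 without chow hippocampus library 3. The rise in EVs lost its call without chow EV library 1, chow EV library 2 and HFD EV library 2 (adjusted p = 0.0704, 0.0720 and 0.0580). The other arm, miR-223-5p, had a difference of 3.93 (SE 0.98, 95% interval 1.84 to 6.02, adjusted p = 0.0228). Hippocampal libraries held at most 9 counts of it, and its call ended without any 1 of 8 libraries (adjusted p = 0.0583 to 0.149), that is all but chow EV library 2, HFD EV library 1, chow hippocampus library 1 and HFD hippocampus library 2.

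Leukocyte miRNAs held many of the higher differences. Of 11 listed immune cell miRNAs, all tested, 7 had a higher difference, 0 a lower one and 10 were above 0, against 4.82% and 0.963% called over all miRNAs. Their median difference was 2.73, and that of all tested miRNAs 0.23. In EVs 6 of the 11 rose, and in hippocampus 2 fell. Both arms of miR-223 and of miR-142a are among the 7. All lists were chosen with earlier results of these data known, so such counts are no independent test. The list's median lay between 2.42 and 2.89 over the 4 scalings and between 2.24 and 3.04 when 1 library was left out.

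miR-142a-5p, made in all blood cell lineages, stood at 811, 613 and 774 CPM in chow EVs and 2836, 4343 and 1537 CPM in HFD EVs, with no overlap. Its hippocampal level was 43.8, 85.4 and 104 CPM in chow and 34.1, 47.6 and 31.8 CPM in HFD libraries, which overlapped. The difference of 3.03 (SE 0.56, 95% interval 1.83 to 4.22, adjusted p = 0.00380) lost its call without HFD EV library 2 (adjusted p = 0.05002). Its other arm miR-142a-3p differed by 3.33 (SE 0.73, 95% interval 1.78 to 4.88, adjusted p = 0.00960), with 624, 1105 and 216 CPM in the HFD EV libraries. That spread was wide, and the call ended with limma-voom (2.86, adjusted p = 0.0507) and without chow EV library 1, chow EV library 2, chow EV library 3, HFD EV library 2 and chow hippocampus library 3 (adjusted p = 0.0667, 0.0686, 0.0617, 0.0916 and 0.0858).

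miR-342-3p, abundant in lymphocytes, was read at 79.8, 74.0 and 197 CPM in chow EVs and 681, 697 and 732 CPM in HFD EVs. In hippocampus it was at 164, 162 and 257 CPM in chow and 115, 149 and 132 CPM in HFD libraries. The HFD EV libraries lay close together, and 1 chow EV library stood apart at the upper end. Its difference of 3.15 (SE 0.55, 95% interval 1.99 to 4.31, adjusted p = 0.00242) was called in all 25 other settings. The passenger arm miR-342-5p had a difference of 1.67 (adjusted p = 0.0876), which did not pass.

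miR-150-5p, of mature lymphocytes, had 122, 38.6 and 143 CPM in chow EVs and 388, 1070.0 and 249 CPM in HFD EVs, against a hippocampal level between 113 and 173 CPM in all 6 libraries. Its difference of 2.73 (SE 0.73, 95% interval 1.18 to 4.28, adjusted p = 0.0371) ended with DESeq2 size factors (2.42, adjusted p = 0.0616), with TMM within each sample type (2.62, adjusted p = 0.0598), with the replicate number as a block (2.63, adjusted p = 0.0646) and without any 1 of 9 libraries (adjusted p = 0.0635 to 0.221), that is all but HFD EV library 1, HFD EV library 3 and chow hippocampus library 1. The other 4 members did not pass. Among them miR-155-5p, induced in activated leukocytes, had 0.065 (adjusted p = 0.978).

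Summed over the list, immune cell miRNAs took 0.523 to 0.728% in chow EVs, 1.31 to 2.49% in HFD EVs, 0.0517 to 0.0797% in chow hippocampus and 0.0385 to 0.0502% in HFD hippocampus. These are shares of unscaled counts, of which miR-148a-3p held less in HFD than in chow EVs, and its part in them was not tested. None of the 11 was at 0 in all libraries of a sample type. In bulk samples a change in the number of a cell type and a change of RNA per cell cannot be told apart. The red cell list took 0.263 to 0.466% in chow EVs, 0.198 to 0.438% in HFD EVs, 0.104 to 0.174% in chow hippocampus and 0.0832 to 0.103% in HFD hippocampus, and none of its 9 present members was at 0 in a sample type; its part in the hippocampal values was not tested. It had 0 calls among 9 tested members and a median difference of 0.55, with miR-451a at 1.89 (adjusted p = 0.0991) and miR-16-5p at 1.69 (adjusted p = 0.0562). Its members miR-486a-3p and miR-486b-3p repeat the counts of miR-486a-5p, so its share, member count and median hold these reads more than once. miR-16-5p was called in 10 of 25 other settings (adjusted p = 0.0164 to 0.0497), and miR-451a without HFD EV library 1 (adjusted p = 0.0273).

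**Figure D3:**
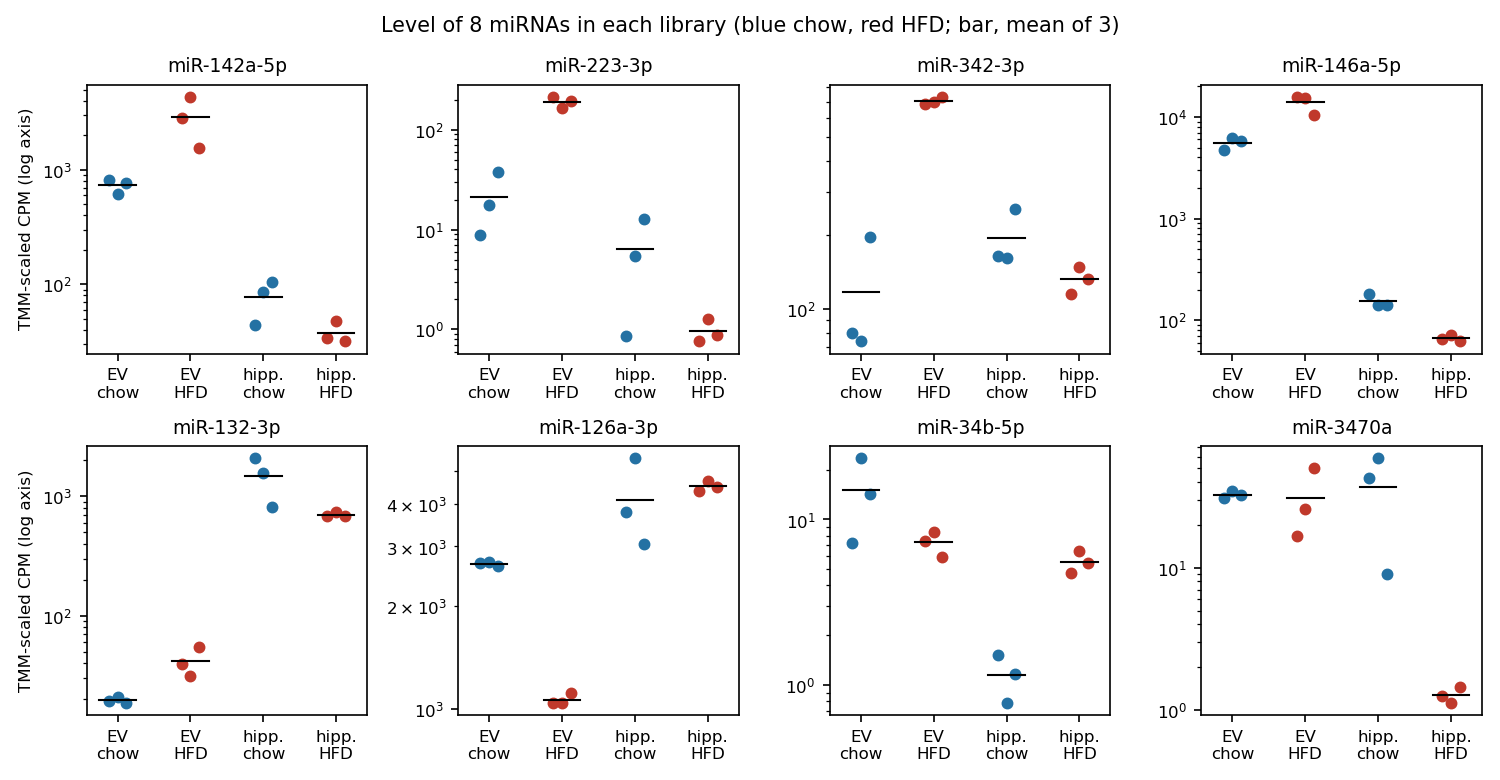
Level (TMM-scaled CPM, log axis) of 8 miRNAs in each of the 12 libraries, by group, with the mean of 3 as a bar. miR-142a-5p, miR-223-3p, miR-342-3p and miR-146a-5p were highest in HFD EVs in every library; miR-3470a was at 1.12 to 1.45 CPM in HFD hippocampus and at 8.96 CPM or more elsewhere.

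The obesity and inflammation list overlapped with the immune list and, like it, had only higher calls. All 14 listed members were tested, 8 had a higher difference and 0 a lower one (4.82% and 0.963% over all miRNAs), and the median was 1.99 (1.63 to 2.05 over the scalings and omissions). Its range was 0.065 to 5.81. Of the 8, 5 are also on the immune cell list, and the others are miR-21a-5p, miR-132-3p and miR-335-5p.

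miR-21a-5p, raised in many inflamed and fibrotic tissues, was among the most abundant miRNAs of EVs. It stood at 40595, 41485 and 56787 CPM in chow EVs and 126449, 120293 and 118104 CPM in HFD EVs, and at 12556, 14992 and 17586 CPM in chow and 10780.3, 12705 and 10455 CPM in HFD hippocampus. EV diets were far apart, and hippocampal diets overlapped. The difference of 1.805 (SE 0.37, 95% interval 1.03 to 2.58, adjusted p = 0.00735) ended without chow EV library 1, chow EV library 2, HFD EV library 2 and chow hippocampus library 3 (adjusted p = 0.0667, 0.0636, 0.0730 and 0.0713).

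miR-335-5p, from an intron of Mest, had 391.5, 256 and 507 CPM in chow EVs and 1104, 1169 and 1799.9 CPM in HFD EVs. Hippocampus held 114, 72.5 and 104 CPM in chow and 55.5, 62.4 and 52.3 CPM in HFD libraries. The diets did not overlap in either sample type. The difference of 2.59 (SE 0.48, 95% interval 1.56 to 3.61, adjusted p = 0.00380) was called in all 25 other settings. Its other arm miR-335-3p differed alike, by 2.36 (SE 0.50, 95% interval 1.29 to 3.42, adjusted p = 0.00890), and that call ended without HFD EV library 2 (adjusted p = 0.05002). miR-146b-5p, the close relative of miR-146a-5p, had 1.36 (adjusted p = 0.0640). It was called with library totals, with all libraries thinned to one depth, without HFD EV library 3 and without chow hippocampus library 1 (adjusted p = 0.0304 to 0.0427).

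The let-7 family, which promotes differentiation and shares the seed GAGGUAG, had 9 tested members, of which let-7f-5p and miR-98-5p had a higher difference, 0 had a lower one, and 7 were above 0. The median was 0.96 (0.57 to 1.01 over the scalings and omissions).

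let-7f-5p was measured at 23162, 34729.9 and 34293 CPM in chow EVs and 83965, 73979 and 77616 CPM in HFD EVs. Hippocampus held 15296, 28447 and 18193 CPM in chow and 13677, 13930.5 and 12465 CPM in HFD libraries. The difference was 1.98 (SE 0.41, 95% interval 1.12 to 2.84, adjusted p = 0.00735), and its call ended without chow EV library 1 and HFD EV library 2 (adjusted p = 0.0638 and 0.05002). miR-98-5p rose in EVs, from 217 ± 58.5 to 824 ± 47.3 CPM (SD, n = 3), at a log2 change of 1.93 (adjusted p = 0.00500). Its difference of 1.63 (SE 0.46, 95% interval 0.65 to 2.60, adjusted p = 0.0482) ended without any 1 of 10 libraries (adjusted p = 0.0654 to 0.181), that is all but HFD EV library 3 and chow hippocampus library 1, with DESeq2 size factors (1.24, adjusted p = 0.0764), without a filter (1.29, adjusted p = 0.159), with the stricter filter (1.70, adjusted p = 0.0671) and with both replicate blocks (adjusted p = 0.0646 and 0.0672).

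The rest did not pass in the same fit. let-7g-5p had 1.20 (adjusted p = 0.135), let-7e-5p 1.10 (adjusted p = 0.166), let-7a-5p 0.96 (adjusted p = 0.173), let-7i-5p 0.91 (adjusted p = 0.182) and let-7d-5p 0.52 (adjusted p = 0.517). let-7c-5p and let-7b-5p lay below 0, at -0.45 (adjusted p = 0.545) and -0.99 (adjusted p = 0.122). let-7g-5p was called with library totals (1.29, adjusted p = 0.0424). let-7b-5p was called lower with DESeq2 size factors (-1.38, adjusted p = 0.00995), TMM within each sample type (-1.17, adjusted p = 0.0245) and DESeq2 (-1.38, adjusted p = 4.53e-06). No test compared members with each other. Members of this family differ by few bases, and how reads that match several were counted is not given in the sources used here.

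Among neuron miRNAs 1 of 22 tested had a higher difference and 0 a lower one, close to the 4.82% called higher over all miRNAs, at a median of 0.49. The one is miR-9-3p, whose hairpin is a hallmark of neural progenitors and neurons. It stood at 62.1, 47.3 and 110.3 CPM in chow EVs and 849, 872 and 676 CPM in HFD EVs. Hippocampus held 1457, 2701 and 2262 CPM in chow and 2863, 3184 and 3227 CPM in HFD libraries. HFD was above chow in both sample types without overlap, so the difference is one of size. It was 2.92 (SE 0.48, 95% interval 1.91 to 3.93, adjusted p = 0.00242), from 3.45 (adjusted p = 3.27e-05) in EVs and 0.53 (adjusted p = 0.365) in hippocampus, and held its call in all 25 other settings. The abundant arm miR-9-5p had 2.42 (adjusted p = 0.0573). It was called with the stricter filter, library totals, DESeq2, the block by diet and number and shared reads kept once (adjusted p = 0.0340 to 0.0483), and without HFD EV library 3 (adjusted p = 0.0054).

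miR-132-3p, which follows neuronal activity and is also made in other tissues, was at 19.2, 20.7 and 18.6 CPM in chow EVs and 39.6, 31.0 and 54.4 CPM in HFD EVs. In hippocampus it was at 2084, 1557 and 817 CPM in chow and 686, 732 and 684 CPM in HFD libraries. Neither diet effect alone passed, at 1.09 (adjusted p = 0.0847) in EVs and -1.08 (adjusted p = 0.0763) in hippocampus, but their difference did, at 2.18 (SE 0.50, 95% interval 1.11 to 3.25, adjusted p = 0.0145). It was called in all 25 other settings. Its other arm miR-132-5p was at 1.60 (adjusted p = 0.118). The neuronal activity list had 2 higher differences among 9 tested members, miR-132-3p and miR-146a-5p, and a median of 0.66. miR-191-5p of this list rose in hippocampus alone (0.99, adjusted p = 0.0315) and had a difference of -0.88 (adjusted p = 0.166), called with DESeq2 size factors (-1.23, adjusted p = 0.0307).

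In the miR-181 family, known from neurons and lymphocytes, 6 of 7 tested members lay below 0. miR-181c-5p was at 16.6, 17.5 and 13.6 CPM in chow EVs and 7.10, 7.89 and 4.31 CPM in HFD EVs, and at 68.5, 44.2 and 34.3 CPM in chow and 90.2, 113 and 108 CPM in HFD hippocampus. The EV libraries went down and the hippocampal ones up with HFD, with no overlap in either, though neither effect passed alone in the main fit. The EV fall was called in 5 of 25 other settings (adjusted p = 0.000704 to 0.0461). The hippocampal rise was called in 10 of 25 (adjusted p = 0.000211 to 0.0498). The difference was -2.37 (SE 0.55, 95% interval -3.55 to -1.20, adjusted p = 0.0145) and was called in all 25 other settings. The other members with its seed, miR-181a-5p, miR-181b-5p and miR-181d-5p, were at -0.96 (adjusted p = 0.229), -1.25 (adjusted p = 0.166) and -0.93 (adjusted p = 0.252). All 3 were called lower with DESeq2 size factors (adjusted p = 0.0424, 0.0246 and 0.0324) and with DESeq2 (adjusted p = 0.0154, 0.0024 and 0.00063). The 3p arm miR-181c-3p was at -0.50 (adjusted p = 0.730). miR-181a-1-3p, another 3p arm and the only member above 0, was at 1.94 (SE 0.53, 95% interval 0.82 to 3.07, adjusted p = 0.0408), with 5.18, 4.13 and 5.73 CPM in chow EVs and 11.9, 9.47 and 8.61 CPM in HFD EVs. Its call ended with both replicate blocks, with limma-voom (1.88, adjusted p = 0.0688), without a filter (1.62, adjusted p = 0.0964) and without any 1 of 10 libraries (adjusted p = 0.0514 to 0.154), that is all but HFD EV library 3 and chow hippocampus library 2. Over the 7 tested members of the list 1 was higher and 1 lower, at a median of -0.93.

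The neuron list's share of EV counts was higher after HFD in every library, as given above. None of its 22 present members was at 0 in all EV libraries. A share also depends on the other miRNAs, and miR-148a-3p took less of HFD than of chow EV counts. The share is a sum, and the median diet change of the members in EVs was -0.0906 on the log2 scale. By the test 3 of them rose in EVs and 0 fell. Whether brain RNA in the EV libraries contributes to the values of miR-9-3p was not tested.

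miR-30b-3p, the less abundant arm of its hairpin in these libraries, had 11.4, 9.19 and 7.88 CPM in chow EVs and 35.1, 37.9 and 33.4 CPM in HFD EVs, and 21.2, 25.8 and 19.1 CPM in chow and 12.0, 11.9 and 9.84 CPM in HFD hippocampus. The difference of 2.87 (SE 0.49, 95% interval 1.83 to 3.90, adjusted p = 0.00242) was called in all 25 other settings, whereas the guide arm miR-30b-5p was at -0.038 (adjusted p = 0.978). miR-30b-3p was the only one of 10 tested members of the miR-30 list to be called.

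miR-27a-5p stood at 34.2, 25.7 and 28.7 CPM in chow EVs and 105, 99.95 and 47.9 CPM in HFD EVs, and at 14.3, 17.98 and 10.5 CPM in chow and 7.40, 5.76 and 5.74 CPM in HFD hippocampus. Its difference of 2.70 (SE 0.56, 95% interval 1.52 to 3.88, adjusted p = 0.00737) ended without HFD EV library 2 (adjusted p = 0.0636). The guide arm miR-27a-3p, an inhibitor of fat cell differentiation, was at -0.20 (adjusted p = 0.856). miR-27b-5p differed by 2.32 (SE 0.62, 95% interval 0.9999 to 3.64, adjusted p = 0.0371), with a hippocampal change of 0.073 (adjusted p = 0.939). In EVs it rose from 7.15 ± 2.09 to 38.2 ± 4.63 CPM (SD, n = 3). Its call ended without any 1 of 10 libraries (adjusted p = 0.0563 to 0.179), that is all but HFD EV library 3 and chow hippocampus library 3, with limma-voom (2.21, adjusted p = 0.0507), without a filter (1.90, adjusted p = 0.0932) and with all libraries thinned to one depth (1.99, adjusted p = 0.0810). miR-27b-3p was at 0.66 (adjusted p = 0.467).

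Both arms were tested for 143 hairpins. The arms had the same sign of the difference in 92 of these (64.3%), with a Pearson r of 0.309 and a Spearman rho of 0.379 over hairpins that share their libraries. Not all of these are separate measurements. Both arms of miR-486a hold repeated counts, and miR-9b-3p and miR-126b-3p repeat miR-9-5p and miR-126a-5p. Both arms were called for miR-142a, miR-223 and miR-335, and 1 arm alone for 14 hairpins.

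In a further group the difference came from hippocampus. miR-467e-5p, of the Sfmbt2 cluster of rodents, was at 6.73, 10.6 and 11.5 CPM in chow EVs and 15.6, 25.8 and 12.92 CPM in HFD EVs. Chow hippocampus libraries held 4.98, 5.67 and 8.18 CPM, from 73 counts in all, and the HFD hippocampus libraries held 0 counts. That makes it at least 86.4-fold lower in HFD hippocampus, against a floor of 3 counts over the group. The adjusted p of its difference was 3.89e-05, and the fitted value of 9.11 depends on how 0 counts are handled. The other 12 tested Sfmbt2 members were not called, and the list's median was 0.59. For miR-6481 the hippocampus held 182 counts in chow and 1 in HFD libraries, a ratio of pooled counts of 647 (exact 95% interval 115 to 25670, counting error only). EVs held 3 counts in all, in HFD library 2, so the EV side is at the floor. The adjusted p of its difference was 0.0228. The call ended without HFD EV library 2 and HFD hippocampus library 3 (adjusted p = 1 and 0.0505).

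miR-3470a was at 31.1, 34.5 and 32.2 CPM in chow EVs and 16.8, 25.8 and 50.1 CPM in HFD EVs. Hippocampus held 42.7, 58.8 and 8.96 CPM in chow and 1.24, 1.12 and 1.45 CPM in HFD libraries. Chow hippocampus library 3 lay far below the other chow libraries and still above all HFD libraries. The difference was 4.75 (SE 0.81, 95% interval 3.02 to 6.47, adjusted p = 0.00242). miR-3470b followed the same pattern, at 93.8, 103 and 12.5 CPM in chow and 3.53, 4.27 and 2.46 CPM in HFD hippocampus, with a difference of 4.13 (SE 0.84, 95% interval 2.34 to 5.92, adjusted p = 0.00735). miR-690, described in mice as an insulin-sensitising cargo of macrophage vesicles, had 231, 316 and 37.0 CPM in chow and 9.96, 6.21 and 15.6 CPM in HFD hippocampus, against 115, 57.0 and 53.7 CPM in chow EVs and 53.3, 50.5 and 60.8 CPM in HFD EVs. Its difference was 3.74 (SE 0.86, 95% interval 1.91 to 5.57, adjusted p = 0.0145) and ended without chow EV library 2 and HFD EV library 2 (adjusted p = 0.0548 and 0.05002). None of these 3 changed with diet in EVs by the test, at -0.092 (adjusted p = 0.950), -0.22 (adjusted p = 0.862) and -0.46 (adjusted p = 0.695).

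In miR-7043-3p the diets stood apart in both sample types, though the test called only the fall in hippocampus, a call lost in 21 of 25 other settings (adjusted p = 0.0511 to 0.341). It was at 25.9, 26.2 and 14.3 CPM in chow EVs and 61.4, 54.2 and 41.5 CPM in HFD EVs, and hippocampal libraries held 3 to 18 counts each. The difference of 3.26 (SE 0.71, 95% interval 1.75 to 4.77, adjusted p = 0.00960) ended without HFD EV library 2, chow hippocampus library 2 and chow hippocampus library 3 (adjusted p = 0.0726, 0.0798 and 0.0545).

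Of the 29 miRNAs called in hippocampus 20 had no call in the difference, among them miR-122-5p of liver (2.11, adjusted p = 0.0898), miR-10b-5p (1.76, adjusted p = 0.154) and miR-10a-5p (1.36, adjusted p = 0.166). Chow and HFD hippocampus libraries also differ in depth, and with all libraries thinned to one depth, a check added after the data were seen, 36 were called in the difference, 27 of the 30 among them. The hippocampal diet effect itself was called for 30 with thinning, of which 1 rose and 29 fell. Of the 29 called in hippocampus without thinning, 19 were among those 30.

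Of the 5 lower differences 2 belong to miR-126, the miRNA of endothelium. miR-126a-3p stood at 2685, 2702 and 2630.0 CPM in chow EVs and 1042, 1043 and 1111 CPM in HFD EVs. In hippocampus it stood at 3795, 5449 and 3046 CPM in chow and 4372, 4664 and 4492 CPM in HFD libraries, where the diets overlapped. EV replicates lay close together. The difference was -1.47 (SE 0.37, 95% interval -2.24 to -0.69, adjusted p = 0.0228) and ended with the stricter filter (-1.42, adjusted p = 0.0728). miR-126b-5p was at 61.6, 58.8 and 40.8 CPM in chow EVs and 23.9, 17.4 and 11.3 CPM in HFD EVs, with a difference of -2.13 (SE 0.59, 95% interval -3.39 to -0.88, adjusted p = 0.0449). Its fall in EVs lost its call in 9 of 25 other settings (adjusted p = 0.0510 to 0.129). The call in the difference ended without chow EV library 1, HFD EV library 2, chow hippocampus library 3, HFD hippocampus library 1 and HFD hippocampus library 3 (adjusted p = 0.0614, 0.0760, 0.0622, 0.0506 and 0.0680), and with library totals (-2.13, adjusted p = 0.0542), the stricter filter (-2.05, adjusted p = 0.0776), shared reads kept once (-2.11, adjusted p = 0.0529) and thinning (-1.92, adjusted p = 0.0810). miR-126a-5p, whose counts miR-126b-3p repeats, was at -1.56 (adjusted p = 0.0876) and was called in 11 other settings, with TMM within each sample type (-1.79, adjusted p = 0.0158) among them. All 4 tested endothelial rows lay below 0, at a median of -1.56 (-2.06 to -1.49 over the scalings and omissions). The list took 0.189 to 0.288% in chow EVs, 0.113 to 0.122% in HFD EVs, 0.372 to 0.550% in chow hippocampus and 0.602 to 0.714% in HFD hippocampus, with no member at 0 in a sample type.

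miR-34b-5p, of ciliated cells, was at 7.25, 23.4 and 14.3 CPM in chow EVs and 7.44, 8.42 and 5.92 CPM in HFD EVs, which overlapped. Hippocampus held 1.52, 0.782 and 1.17 CPM in chow libraries, from 3 to 7 counts each, and 4.77, 6.44 and 5.42 CPM in HFD libraries, from 69 to 86 counts each. The difference was -3.30 (SE 0.69, 95% interval -4.76 to -1.84, adjusted p = 0.00742), and was called in all 25 other settings. The rise in hippocampus (2.25, adjusted p = 0.0164) lost its call with all libraries thinned to one depth (1.801, adjusted p = 0.099996) and without chow hippocampus library 2 (adjusted p = 0.0667). Its other arm miR-34b-3p was at -1.07 (adjusted p = 0.430). The choroid plexus and ependyma list had this 1 call among 8 tested members and a median of -0.83. It took 0.170 to 0.379% of counts in chow and 0.263 to 0.306% in HFD hippocampus.

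miR-193a-5p, from a hairpin active in fat, was at 41.4, 32.2 and 20.1 CPM in chow EVs and 13.0, 9.995 and 10.8 CPM in HFD EVs, while hippocampus held 1 to 5 counts per chow library. The EV fall lost its call in 14 of 25 other settings (adjusted p = 0.0503 to 0.131). The difference of -2.22 (SE 0.63, 95% interval -3.56 to -0.89, adjusted p = 0.0482) ended without any 1 of 8 libraries (adjusted p = 0.0588 to 0.0783), that is all but chow EV library 3, HFD EV library 1, HFD EV library 3 and chow hippocampus library 1, with library totals (-2.24, adjusted p = 0.0595), with limma-voom (-2.11, adjusted p = 0.0607), with the stricter filter (-2.20, adjusted p = 0.0866), with shared reads kept once (-2.24, adjusted p = 0.0623), with thinning (-2.14, adjusted p = 0.110) and with both replicate blocks. miR-193a-3p was at -0.89 (adjusted p = 0.640).

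The other lists had few or no calls, and are described by their medians beside that of all miRNAs (0.23). Of 17 adipogenesis miRNAs 1 was called, miR-335-5p, and the median was 0.062. miR-143-3p of this list, high in smooth muscle, fell in EVs (-1.92, adjusted p = 0.00599) and had a difference of -1.20 (adjusted p = 0.162). It was called in the difference with DESeq2 size factors (-1.64, adjusted p = 0.0167), TMM within each sample type, DESeq2 and no filter (adjusted p = 0.0390, 0.00101 and 0.0421). Of 10 anti-adipogenic miRNAs 0 were called (median 0.25). Among them miR-221-3p rose in EVs (1.34, adjusted p = 0.0179) with 0.91 (adjusted p = 0.105) in hippocampus, and its difference was 0.43 (adjusted p = 0.600).

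All 9 smooth muscle and fibroblast miRNAs, miR-143-3p included, lay below 0 with 0 calls in the main scaling, at a median of -1.12 (-1.57 to -0.59 over the scalings and omissions) and a range of -2.79 to -0.50. Of these miR-199a-3p turned above 0 (0.16) without HFD hippocampus library 2. The list took 1.20 to 1.45% in chow EVs, 0.701 to 0.823% in HFD EVs, 1.25 to 2.65% in chow hippocampus and 1.33 to 1.77% in HFD hippocampus. Of 50 tested Dlk1-Dio3 miRNAs, from an imprinted locus active in brain, 0 were called and 20 were above 0, at a median of -0.31. miR-127-3p of this locus was at -0.30 (adjusted p = 0.733).

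The miR-15 and miR-16 list had 0 calls among 8 tested members, 7 of them above 0, at a median of 1.17. miR-17-92 and relatives had 0 of 10 (median 0.62), miR-29 0 of 6 (0.57), miR-148 and miR-152 0 of 5 (0.031), miR-10, miR-99 and miR-100 0 of 7 (-0.077) and insulin resistance 0 of 11 (-0.19). Of the other cell type lists, epithelial had 0 of 14 (0.14), oligodendrocyte 0 of 7 (-0.60), liver 0 of 4 (1.33), striated muscle 0 of 7 (0.40) and the testis X cluster 0 of 8 (-0.93). Some lists count repeated rows as separate members. In liver miR-122b-3p repeats miR-122-5p, in striated muscle miR-1b-5p repeats miR-1a-3p, and in Sfmbt2 miR-467b-5p repeats miR-467a-5p. The miR-30 list had a median of 0.41. Over the 4 scalings and the omission of each library the median turned sign for neuron, neuronal activity, red cell, striated muscle, epithelial, adipogenesis, anti-adipogenic, miR-30, miR-29, miR-148 and miR-152, Sfmbt2 and testis X cluster. It kept its sign for the other lists.

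**Figure D4:**
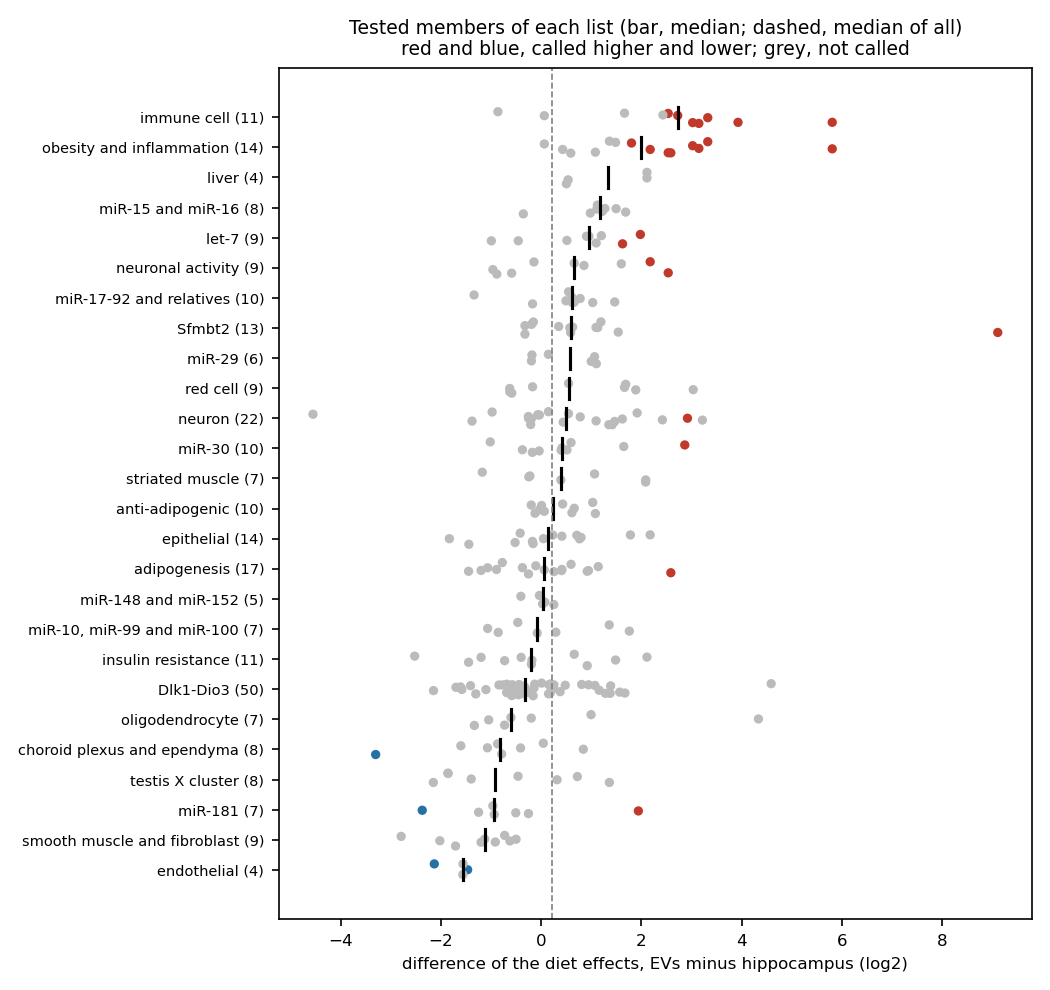
Difference of the diet effects (log2, EVs minus hippocampus) for each tested member of the 26 lists, with the list's median as a bar and the median of all 519 miRNAs dashed. Immune cell and obesity and inflammation members spread to the right with 7 and 8 called, and the 4 endothelial members lie left of 0.

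Of 30 miRNAs with at least 1000 CPM in all 4 groups 3 were called (miR-21a-5p, let-7f-5p and miR-126a-3p), against 30 of all 519 (5.78%), and the median half-width of their 95% interval was 0.865, against 1.46 over all tested miRNAs. The interval lay within -1 to 1 for 3 of them. These were miR-26a-5p at 0.062 (SE 0.44, 95% interval -0.86 to 0.99, adjusted p = 0.945), miR-29a-3p at -0.18 (SE 0.36, 95% interval -0.95 to 0.59, adjusted p = 0.792) and miR-99b-5p at -0.077 (SE 0.42, 95% interval -0.96 to 0.81, adjusted p = 0.926). For them a difference beyond 2-fold lies outside the interval at this scaling.

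miR-148a-3p, the most abundant miRNA of EVs, had 471669, 348721 and 868661 CPM in chow EVs and 216177, 228626 and 280398 CPM in HFD EVs. Hippocampus held 11787, 23132 and 11606 CPM in chow and 5188, 7125 and 4419.8 CPM in HFD libraries. HFD lay below chow in both sample types. Its log2 change was -1.22 (adjusted p = 0.0617) in EVs and -1.48 (adjusted p = 0.0315) in hippocampus. The difference was 0.26 (SE 0.53, 95% interval -0.86 to 1.37, adjusted p = 0.801), and its sign turned with DESeq2 size factors, with DESeq2, without a filter and in 4 of 12 omissions of a library. Of the other abundant EV miRNAs, miR-99a-5p was at -1.07 (adjusted p = 0.183), miR-30a-5p at 0.42 (adjusted p = 0.586) and miR-30d-5p at 0.60 (adjusted p = 0.400). In hippocampus, miR-218-5p, of motor and other neurons, was at -0.20 (adjusted p = 0.846) and the neuronal miR-128-3p at -0.98 (adjusted p = 0.349).

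**Figure D5:**
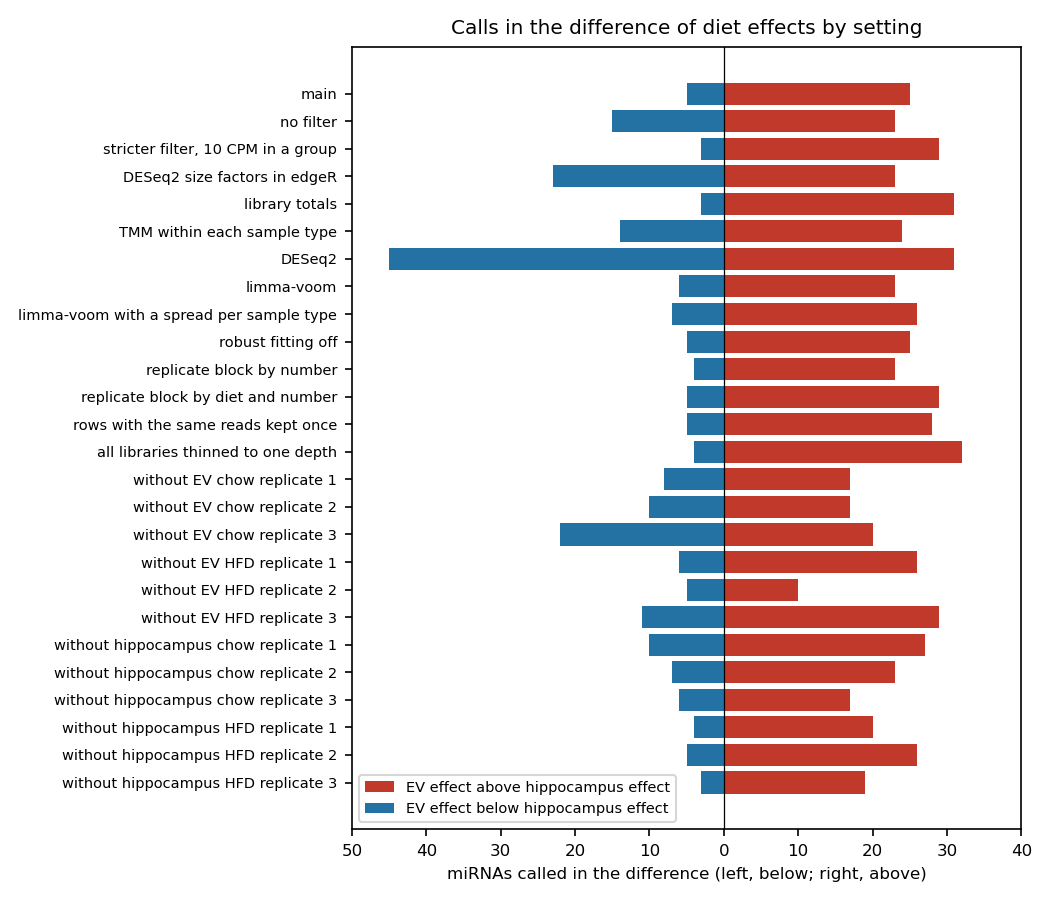
Number of miRNAs called in the difference under each setting, with those whose EV effect lay above the hippocampal effect to the right and those below to the left. Counts above lay between 10 and 32 and counts below between 3 and 45, so the number below moved more with the setting.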

How the data were processed

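The deposited files hold read counts per small RNA, 1 column per library, per the file headers, with no normalisation. Per the submitters' processing notes Bowtie was used, with no version. The build, the annotation and the counter were not given in the sources used here. The hippocampus file has 1 more HFD column that matches no sample, and it was not used.

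Rows in both tables were joined by name, and 5 hippocampus rows with blanks were left out. edgeR 4.0.16 in R 4.3.3 fitted all 12 libraries with filterByExpr, TMM and robust quasi-likelihood, and tested the difference and each diet effect two-sided with Benjamini-Hochberg adjustment over 519 miRNAs. limma 3.58.1 and DESeq2 1.42.0 served as alternatives. The fit was tested on simulated data. Standard errors come from the F statistic. Levels are TMM-scaled CPM. A floor of 3 counts is 0.189 to 2.15 CPM. Intervals on counts cover counting error only, since they pool the libraries of a group and leave out the spread between replicates. The counts are of reads, and no correction by molecular identifiers is given.

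Replicate pairs differed beyond sampling noise (chi-square per degree of freedom 89.8 to 740 over 12 pairs). miRNAs and lists were chosen with earlier results of these data known. Named miRNAs are the 12 largest higher and up to 12 largest lower differences among called miRNAs with 10 CPM in a group, those called in both diet effects, their other arms, up to 3 abundant and all called members per list, the 10 most abundant per sample type and, at 1000 CPM or more, those with narrow intervals. The remaining called miRNAs, 5 let-7 members and miR-155-5p were added after their values were seen. For 9 lists with few calls members were mostly given by count and median. These lists were choroid plexus, oligodendrocyte, Sfmbt2, liver, epithelial, striated muscle, Dlk1-Dio3, testis X and insulin resistance. Exceptions were called members, miR-122-5p, miR-127-3p and members also named under another rule or list.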

Additional observations from a re-analysis of the deposited data

Results flagged for a closer look

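The diet effect differed between EVs and hippocampus, by the test of the difference itself, for 30 miRNAs. The differences (EVs minus hippocampus, log2) above 0 were miR-6481 12.42, miR-467e-5p 9.11, miR-223-3p 5.81, miR-3470a 4.75, miR-3470b 4.13, miR-223-5p 3.93, miR-690 3.74, miR-142b 3.33 and miR-142a-3p 3.33. Further ones were miR-7043-3p 3.26, miR-342-3p 3.15, miR-142a-5p 3.03, miR-9-3p 2.92, miR-30b-3p 2.87, miR-150-5p 2.73, miR-27a-5p 2.70 and miR-335-5p 2.59, and then miR-146a-5p 2.54, miR-335-3p 2.36, miR-27b-5p 2.32, miR-132-3p 2.18, let-7f-5p 1.98, miR-181a-1-3p 1.94, miR-21a-5p 1.805 and miR-98-5p 1.63. Those below 0 were miR-126a-3p -1.47, miR-126b-5p -2.13, miR-193a-5p -2.22, miR-181c-5p -2.37 and miR-34b-5p -3.30. The values of miR-6481 and miR-467e-5p depend on how 0 counts are handled, and that of miR-142b repeats miR-142a-3p.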

How the results depend on the processing

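The difference was called for 30 miRNAs, for 46 with DESeq2 size factors and for 76 with DESeq2. HFD changed 38 in EVs, 84 with DESeq2, and 29 in hippocampus, 77 with DESeq2, 67 in a fit of its 6 libraries alone, 12 with the stricter filter and 17 with shared reads kept once. Leaving out 1 library gave 15 to 42 calls in the difference, 10 to 49 in EVs and 10 to 37 in hippocampus. The EV count was 20 and 18 without chow EV library 1 or 2, and 24 and 10 without HFD EV library 1 or 2. The hippocampus count was 15 without HFD EV library 2, 18 without chow hippocampus library 1, and 13, 19 and 10 without HFD hippocampus library 1, 2 or 3. The causes were not tested. Of the 30, 21 kept their call in all 13 settings that keep every library, and 13 in all 12 omissions.

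Replicate numbers were used as a block. The deviations of same-numbered libraries had r between -0.388 and 0.194, a range that includes pairs across diets. Between EVs and hippocampus of the same diet, r was 0.0537, 0.0783 and 0.192 in chow. In HFD it was 0.0839, 0.0696 and -0.0625. Such values cannot show whether the same animals were used, which the labels do not give. The block by number gave 27 calls in the difference, 31 in EVs and 23 in hippocampus, and the block by diet and number 34 in the difference.

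Values that turned sign follow, as log2 differences unless a sample type is named. With thinning these were miR-92a-3p 0.033, miR-30e-5p 0.024, miR-152-3p 0.071 and miR-99b-5p 0.057. Without a filter these were miR-148a-3p -0.053, miR-26a-5p -0.28, miR-148b-3p -0.19 and miR-155-5p -0.22. With DESeq2 size factors these were miR-148a-3p -0.10, miR-26a-5p -0.38, miR-148b-3p -0.25 and miR-155-5p -0.33. With DESeq2 these were miR-148a-3p -0.10, miR-26a-5p -0.38, miR-148b-3p -0.25 and miR-155-5p -0.32. With TMM within each sample type these were miR-26a-5p -0.16, miR-148b-3p -0.10 and miR-155-5p -0.14. With the replicate number as a block these were miR-26a-5p -0.0097. With the block by diet and number these were miR-26a-5p -0.0031. With library totals these were miR-152-3p 0.012, miR-3470a in EVs 0.14 and miR-3470b in EVs 0.0095. With the stricter filter these were miR-99b-5p 0.039 and miR-3470a in EVs 0.057. With shared reads kept once these were miR-3470a in EVs 0.054. With 1 library left out, the values that turned sign at least once ranged over miR-92a-3p -0.75 to 0.072, miR-199a-3p -1.62 to 0.16, miR-148a-3p -0.23 to 0.38, miR-26a-5p -0.30 to 0.10, miR-30a-5p -0.082 to 0.52, miR-221-3p -0.043 to 0.50 and miR-30d-5p -0.15 to 0.73, and over miR-148b-3p -0.35 to 0.49, let-7d-5p -0.028 to 0.53, miR-155-5p -0.70 to 0.44, miR-6481 in EVs 0 to 5.25, miR-3470a in EVs -0.52 to 0.22, miR-3470b in EVs -0.56 to 0.055, miR-142a-3p in hippocampus -1.05 to 0.034, miR-142b in hippocampus -1.05 to 0.034 and miR-342-3p in hippocampus -0.54 to 0.089. Depth limits miRNAs near the floor of 3 counts, chiefly the hippocampal side of miR-223-5p, miR-7043-3p, miR-193a-5p and miR-34b-5p.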

Other observations

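Of the rows shared by both tables, 23 held counts in at least 1 chow hippocampus library and 0 in all 3 HFD hippocampus libraries, although the latter were deeper. The reverse held for 54 rows, with 0 in all 3 chow and counts in at least 1 HFD hippocampus library.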
